A study of Mus musculus with 30 samples.

Results

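Thyroid glands of wild-type C57BL/6 male mice of 18 months were compared with those of wild-type C57BL/6 males of 2 months by poly(A) RNA sequencing, with 3 libraries in each group. These 6 libraries, chosen by their age, sex and genotype labels and by the separate entry that the series design gives the ageing mice, are part of 30 in all. The other libraries come from FAD4T and wild-type mice of 2 and 8 months and both sexes. The design counts 3 mice per group and names no litter, hour or day of dissection, so p-values measure only the spread between these mice. No treatment, transgene or Cre driver is given for the wild-type mice. The 2-month males of the ageing set carry the title numbers 4 to 6 and are called the 2-month group. A further 3 wild-type males of 2 months, numbered 1 to 3, carry the same strain, genotype, tissue, sex and age labels and are called the other 2-month group. Wild-type males of 8 months (3 libraries) give an age in between.

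The thyroid follicle is a secretory epithelium. Its cells fold thyroglobulin in the endoplasmic reticulum, release it into the follicle lumen, iodinate it there with hydrogen peroxide from dual oxidases, and take it back up to free thyroid hormone, all under the control of thyrotropin acting on its receptor. When unfolded protein builds up in the endoplasmic reticulum, sensor proteins in its membrane start the unfolded protein response, which raises the genes of chaperones, disulfide isomerases and the machinery that removes misfolded protein.

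Each of the 6 libraries held 14581006 to 18753819 counts. Tg, the thyroglobulin gene, took 14.4% to 19.5% of them at 2 months and 15.4% to 23.2% at 18 months, and Pax8 and Nkx2-1, which mark thyroid follicular cells, were present in every library. Levels below are in CPM, a normalised read count that sets each gene against the total of its library, with TMM factors over the 12 wild-type male libraries. Differences are log2 fold changes ± standard error from edgeR's quasi-likelihood test on the 6 libraries, and "rose" and "fell" mean an adjusted p under 0.05 in it. In these whole glands, fewer cells of a type and less RNA per cell cannot be told apart. Transcripts of neighbouring tissue were present. Summed as the mean of log2(CPM + 1) over 20 genes, skeletal muscle transcripts lay at 6.68 to 8.93 at 2 months and 6.35 to 8.37 at 18 months, but at 1.04 to 6.07 in the other 2-month group, below both. Over 6 parathyroid genes the level was 6.61 and 7.33 in 2-month replicates 4 and 6 and 7.93 and 8.62 in 18-month replicates 1 and 2, but 2.08 in 2-month replicate 5 and 2.66 in 18-month replicate 3.

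Of 16283 genes tested, 5840 (35.9%) differed between 18 and 2 months. The 2782 that rose were 17.1% of the genes tested and the 3058 that fell were 18.8%. Counts of rises and falls within the gene lists below stand beside these shares. In 8351 genes (51.3%) the 3 old and 3 young libraries did not overlap. Without 2-month replicate 5, the library with the smallest total, 1934 genes rose and 1717 fell. Set against the other 2-month group, the same 18-month libraries differed in 859 of 16257 genes (5.28%), of which 533 were higher and 326 lower. The 2 groups of 2-month males themselves differed in 4631 of 17373 genes (26.7%), 2331 higher and 2300 lower in the ageing set. These comparisons share libraries with each other, so each is given with its own values. A gene called higher against both 2-month groups was 1 of 354 (2.22% of the 15931 genes tested in both), and one called lower against both was 1 of 229 (1.44%).

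Gene length moved with the difference. In 5 classes of equal size by length, the genes of the shortest class, with up to 1971 bases of exon, had a median log2 difference of -0.60, with 37.5% of genes lower and 6.32% higher at 18 months. In the longest class, from 6783 bases, the median was 0.34, with 4.24% lower and 34.4% higher. Against the other 2-month group the medians of the same classes were -0.12 and 0.07, and between the 2 groups of 2-month males they were 0.40 and -0.30. After the length trend of each library was removed, an alternative added after these values were seen, 2076 genes were higher and 2135 lower. The part of gene length, or of what moves with it, in any single gene below was not tested beyond that alternative.

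**Figure D1:**
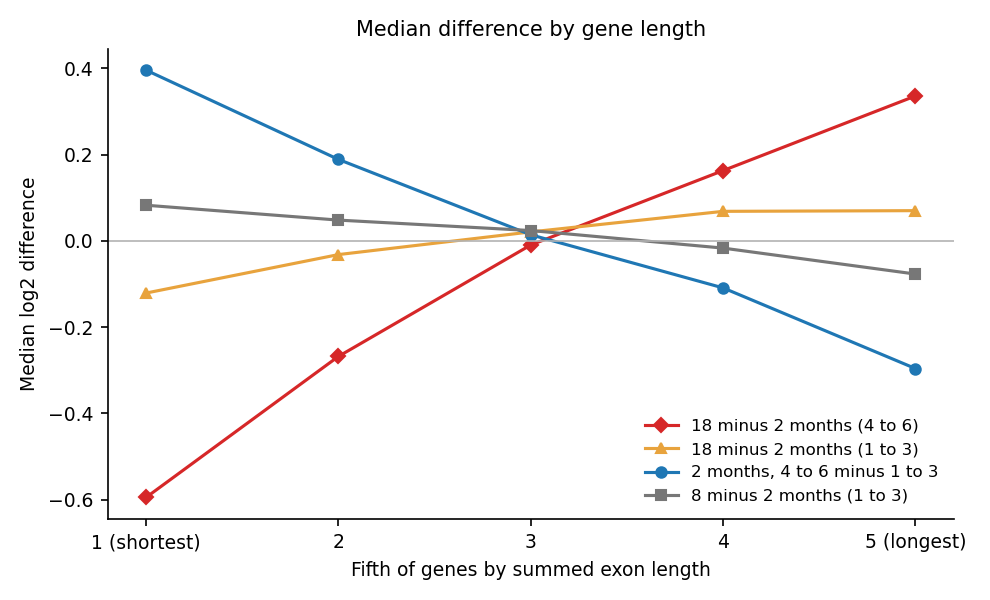
Median log2 difference (vertical axis) of genes grouped into 5 classes of equal size by summed exon length (horizontal axis), for 4 comparisons of wild-type males. The 18-month against 2-month difference climbs from -0.60 in the shortest to 0.34 in the longest class, while the difference of the 2-month groups runs from 0.40 to -0.30.

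Genes of protein folding in the endoplasmic reticulum were higher at 18 months as a group. Of 22 listed members, all tested, 15 rose and 0 fell, beside 17.1% and 18.8% of all genes, with a median log2 difference of 1.40 beside -0.01 over all genes. Against the other 2-month group 15 were higher and 0 lower, with a median of 1.17 beside 0.01, and 14 were higher against both. The 15 calls stayed at 15 or 16 when any 1 library was left out and came to 17 with the length trend removed.

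Hspa5, which encodes the main chaperone BiP, lay at 609, 578 and 757 CPM in 2-month replicates 4, 5 and 6 and at 4871, 3662 and 2962 CPM in 18-month replicates 1, 2 and 3. All 3 old libraries were above the 6 young ones, since the other 2-month group had 764, 1613 and 1260.1 CPM. The difference was 2.53 ± 0.24 (adjusted p = 0.00082), and 1.66 ± 0.30 against the other 2-month group (adjusted p = 0.018). At 8 months Hspa5 stood in between, at 1947, 1712 and 2121 CPM. Hyou1, a large chaperone of the same compartment that works with BiP, went from 127, 142 and 173 to 1233, 1002 and 774 CPM. Its difference of 2.74 ± 0.22 (adjusted p = 0.00071) was the greatest of the list, and it was 2.09 ± 0.30 against the other 2-month group (adjusted p = 0.011). Hsp90b1, the Hsp90 of this compartment, rose by 1.48 ± 0.19 (adjusted p = 0.0013) from 764, 715 and 848 to 2540.4, 2253 and 1836 CPM. In each of these 3 genes the old libraries stood clear of both young groups and of the 8-month mice.

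Among the protein disulfide isomerases, which form and reshuffle disulfide bonds, the members did not move alike. Pdia4 rose from 187, 200.3 and 249 to 1204, 976 and 704 CPM, by 2.15 ± 0.22 (adjusted p = 0.00097), and Pdia6 by 1.12 ± 0.18 (adjusted p = 0.0028). Pdia3 and P4hb did not pass the test, at 0.36 ± 0.18 (adjusted p = 0.14) and 0.12 ± 0.15 (adjusted p = 0.58). Creld2, another oxidoreductase, rose by 2.38 ± 0.29 (adjusted p = 0.0015), with 82.3, 91.8 and 127 CPM at 2 months and 736, 499 and 363 CPM at 18 months. Of the lectin chaperones, which hold glycoproteins while they fold, Canx rose by 0.87 ± 0.15 (adjusted p = 0.0031) but did not pass against the other 2-month group (adjusted p = 0.085). Calr, at 1311, 1640.2 and 1979.8 CPM young and 2319.8, 2013 and 1926 CPM old, passed against neither group.

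The cochaperones that load and unload BiP rose with it. Dnajb9 had 91.4, 107 and 97.2 CPM at 2 months, 426, 337 and 257 CPM at 18 months and 265, 247 and 313 CPM at 8 months. It was higher by 1.76 ± 0.19 at 18 months (adjusted p = 0.00098) and was the only listed member called at 8 months, by 1.05 ± 0.22 (adjusted p = 0.021), and its 8- and 18-month libraries overlapped. Sdf2l1, a partner of BiP, rose by 1.93 ± 0.29 (adjusted p = 0.0032), and Dnajc3 and Dnajb11 rose by 1.67 ± 0.18 and 1.37 ± 0.19 (adjusted p = 0.00098 and 0.0017). Manf, a secreted protein induced by stress of this compartment, rose by 1.43 ± 0.25 (adjusted p = 0.0041).

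Degradation genes for misfolded protein also rose. Sel1l, an adaptor of the membrane ubiquitin ligase complex, went from 87.6, 95.7 and 91.1 to 385, 365 and 263 CPM, a difference of 1.86 ± 0.17 (adjusted p = 0.00076). Edem1, which marks misfolded glycoproteins for removal, rose by 1.77 ± 0.16 (adjusted p = 0.00075) and Herpud1 by 1.02 ± 0.15 (adjusted p = 0.0020). Both were also higher than in the other 2-month group, at adjusted p = 0.020 and adjusted p = 0.031. In all 14 members called against both groups, 18-month replicate 1 was the highest and replicate 3 the lowest of the old libraries.

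Xbp1, a transcription factor of the response, was 0.37 ± 0.14 (adjusted p = 0.076), Atf4, another, -0.25 ± 0.15 (adjusted p = 0.21) and the kinase-like Trib3 -0.30 ± 0.23 (adjusted p = 0.34), and none passed against either young group. Counts per gene do not separate the spliced from the unspliced Xbp1 transcript. Ddit3, which encodes the stress factor CHOP, was 0.65 ± 0.27 (adjusted p = 0.10) and passed only against the other 2-month group, at 1.01 ± 0.24 (adjusted p = 0.044). The sensors were looked up after these values were seen. Eif2ak3 (PERK) rose by 0.92 ± 0.11 (adjusted p = 0.0012) and was higher against both groups (adjusted p = 0.032 for the other). Atf6b, a relative of ATF6, did so too, at 0.54 ± 0.13 (adjusted p = 0.013) and 0.90 ± 0.14 (adjusted p = 0.013). Atf6 and Ern1 (IRE1) rose by 1.23 ± 0.15 and 0.69 ± 0.14 (adjusted p = 0.0012 and 0.0056) and did not pass against the other 2-month group (adjusted p = 0.053 and 0.42). Over the list the difference of the 2-month groups had a median of -0.26, with 4 members called lower in the ageing set, and the 8-month difference had a median of 0.42.

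**Figure D2:**
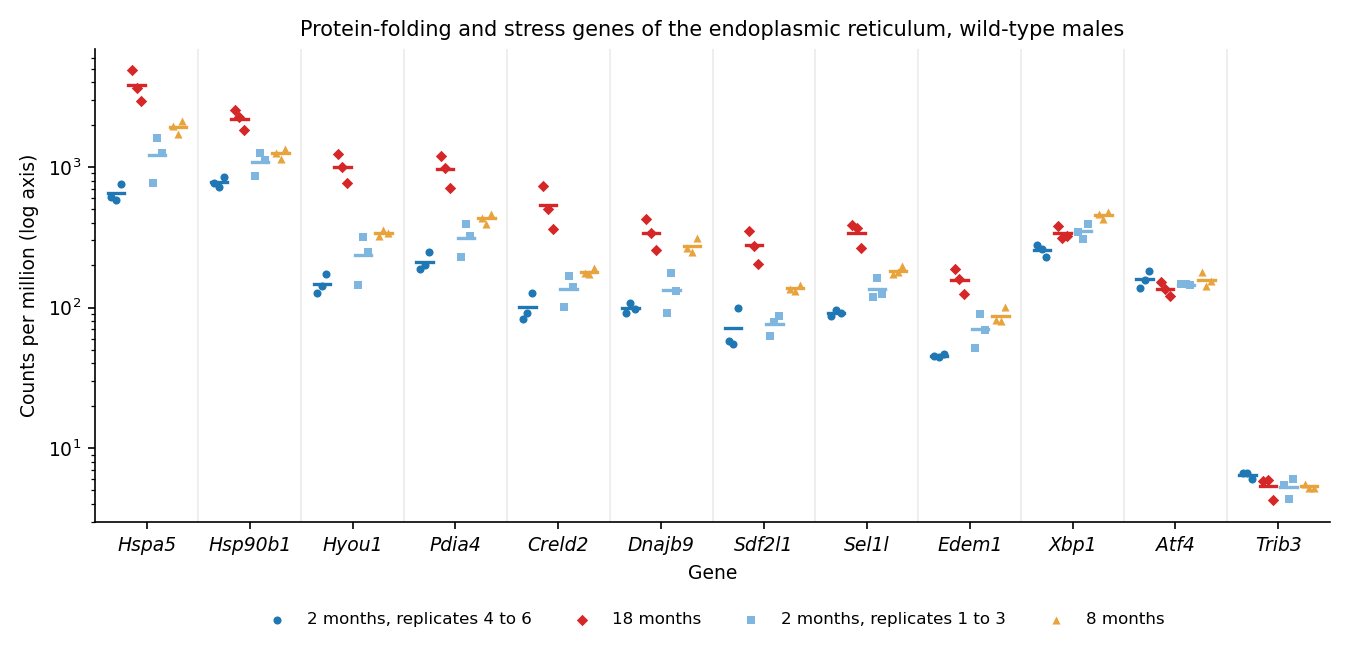
CPM on a log axis for 12 genes of protein folding, degradation and stress signalling in 12 wild-type male libraries, with a point per library and a line at each group mean. From Hspa5 to Edem1 the 18-month libraries stand above both 2-month groups, while Xbp1, Atf4 and Trib3 overlap or differ little.

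The 250 bases before the start of each gene were read from RefSeq promoter sequences of GRCm38.p6 for 20 of the 22 listed members. The endoplasmic reticulum stress element, searched on both strands as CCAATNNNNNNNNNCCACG, was in 7 of these 20 and in 35 of all 27025 genes of the table (0.13%). The motif joins a binding site of NF-Y with one known for ATF6 and XBP1. Of the 35 genes, 19 were tested, and 11 of them rose and 0 fell (median 1.12), beside 17.1% and 18.8% of all genes tested. The 11 include members of the list already counted above. With the other 2-month group as the young one, 8 of the 19 were higher and 0 lower, with a median of 1.02. Of those 19, 12 lie outside the list, among them Derl3 and Syvn1, genes of misfolded-protein removal, and Alg12, a mannosyltransferase of glycan assembly. Adcy3 and Hnrnpa3, also outside it, rose but did not pass against the other 2-month group (adjusted p = 0.16 and 0.15). The rest outside it, Acacb, Calr4, Pan2, Tdrd9, Xlr3a, Xlr3b and Zfp57, passed against neither group. Syvn1 rose by 1.78 ± 0.17 (adjusted p = 0.00086), Derl3 by 1.83 ± 0.43 (adjusted p = 0.022, adjusted p = 0.071 without 2-month replicate 5, 0.074 without 18-month replicate 1 and 0.070 without 18-month replicate 2) and Alg12 by 1.07 ± 0.17 (adjusted p = 0.0026), and each was higher against the other 2-month group too (adjusted p = 0.0077, 0.011 and 0.0091). Alg12 and Creld2 start head to head, and their windows share bases. A match is a description of the letters, and binding was not measured.

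These 4 windows are shown because they hold the element before genes that rose (Hspa5, Creld2 and Hsp90b1) and before Calr, which did not pass the test. Each runs 5′ to 3′ on the gene's strand, in lower case with the element in capitals. Hspa5 is chr2:34771840-34772089 on the plus strand, Creld2 chr15:88819396-88819645 on the plus strand, Hsp90b1 chr10:86705445-86705694 on the minus strand and Calr chr8:84846932-84847181 on the minus strand.
Hspa5: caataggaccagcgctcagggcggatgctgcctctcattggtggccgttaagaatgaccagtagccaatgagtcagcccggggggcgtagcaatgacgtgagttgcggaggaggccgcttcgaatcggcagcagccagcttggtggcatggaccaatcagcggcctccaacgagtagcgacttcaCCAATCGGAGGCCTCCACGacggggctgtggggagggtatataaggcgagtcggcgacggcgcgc
Creld2: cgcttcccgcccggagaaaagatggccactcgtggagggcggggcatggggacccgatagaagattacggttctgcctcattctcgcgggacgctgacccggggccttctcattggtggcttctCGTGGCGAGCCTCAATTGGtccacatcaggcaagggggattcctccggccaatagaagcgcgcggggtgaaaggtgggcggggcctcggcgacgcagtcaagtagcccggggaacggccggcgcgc
Hsp90b1: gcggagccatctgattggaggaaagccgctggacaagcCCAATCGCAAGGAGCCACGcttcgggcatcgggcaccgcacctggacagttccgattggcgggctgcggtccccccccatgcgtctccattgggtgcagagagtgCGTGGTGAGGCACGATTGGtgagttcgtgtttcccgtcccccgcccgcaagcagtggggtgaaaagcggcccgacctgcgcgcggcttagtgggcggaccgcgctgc
Calr: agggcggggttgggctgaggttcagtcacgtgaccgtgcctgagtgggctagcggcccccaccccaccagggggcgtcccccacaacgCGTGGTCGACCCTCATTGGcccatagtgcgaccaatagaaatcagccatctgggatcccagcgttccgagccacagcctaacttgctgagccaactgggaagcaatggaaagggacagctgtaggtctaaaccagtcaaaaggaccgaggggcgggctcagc
The element of Hspa5 begins 65 bases before the start, that of Creld2 at 126 bases on the opposite strand and that of Calr at 162 bases, also on the opposite strand. Hsp90b1 has 2 copies, at 212 bases and, on the opposite strand, at 107 bases.

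Tshr, the thyrotropin receptor, was higher at both older ages. It lay at 30.5, 39.4 and 43.7 CPM in the 2-month group and 39.1, 42.9 and 44.0 CPM in the other, at 109, 152 and 87.5 CPM at 8 months and at 112, 98.6 and 137 CPM at 18 months. All 6 libraries of 8 and 18 months were above all 6 of 2 months. The 18-month difference was 1.59 ± 0.17 (adjusted p = 0.00098), 1.47 ± 0.16 against the other 2-month group (adjusted p = 0.0035), and the 8-month difference was 1.47 ± 0.19 (adjusted p = 0.00071). Of 14 genes of the receptor and its cyclic AMP pathway, 7 rose and 1 fell (median 1.03), beside 17.1% and 18.8% of all genes. With the length trend removed, 5 were higher and 0 lower (median 0.76). Against the other 2-month group only 2 were higher and 0 lower (median 0.63). Tshr was the only member called against both. The fall was lost without 2-month replicate 5 or 6. Adcy3 and Adcy9, adenylyl cyclases, rose by 1.15 ± 0.22 and 1.82 ± 0.32 (adjusted p = 0.0053 and 0.0049) and did not pass against the other 2-month group (adjusted p = 0.16 and 0.30).

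The genes of hormone synthesis mostly did not pass the test. Of 11 tested, 1 rose and 2 fell, and 3 rose without 2-month replicate 6. Duox2, the dual oxidase that supplies hydrogen peroxide, rose from 28.7, 38.6 and 48.5 to 78.7, 74.5 and 89.0 CPM. All 3 old libraries were above the other young ones, at 40.1, 52.3 and 48.8 CPM, and the difference was 1.04 ± 0.18 (adjusted p = 0.0038) and 0.78 ± 0.15 (adjusted p = 0.020) in turn. Duox1 and Duoxa1, its paralogue and the maturation factor of that paralogue, fell by 1.41 ± 0.35 and 1.11 ± 0.29 on the log2 scale (adjusted p = 0.014 and 0.018), from no more than 10 CPM. Neither passed against the other 2-month group (adjusted p = 0.12 and 0.092) or without single libraries. For Duox1 this was adjusted p = 0.065 without 2-month replicate 5, and for Duoxa1 adjusted p = 0.079 without 2-month replicate 5, 0.062 without 2-month replicate 6 and 0.053 without 18-month replicate 2. Duox1 and Duox2 are paralogues that neighbour each other, and whether reads were shared between them was not tested.

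Tg itself differed by 0.09 ± 0.30 (adjusted p = 0.84). Slc5a5, the iodide transporter, was spread over 51.4, 70.5 and 211 CPM at 2 months against 224, 206 and 233 CPM at 18 months and 151, 419 and 269 CPM in the other 2-month group. The third library of the 2-month group lay within the old range, and the difference of 0.96 ± 0.58 did not pass (adjusted p = 0.26). Iyd, which recovers iodide, and Dio1, a deiodinase, differed by 0.21 ± 0.16 and -0.23 ± 0.20 (adjusted p = 0.35 and 0.40). Among the transcription factors that hold thyroid identity, Pax8 and Foxe1 were -0.16 ± 0.18 and 0.04 ± 0.14 (adjusted p = 0.53 and 0.84). Nkx2-1, at 439, 527 and 426 CPM young and 297, 229.8 and 369 CPM old, fell by 0.66 ± 0.19 on the log2 scale (adjusted p = 0.026). That call was not met against the other 2-month group (-0.75 ± 0.22, adjusted p = 0.073) or without single libraries, with adjusted p = 0.11 without 2-month replicate 5, 0.054 without 2-month replicate 6, 0.070 without 18-month replicate 1 and 0.10 without 18-month replicate 2. Of 12 genes of thyroglobulin uptake and breakdown, 1 rose and 5 fell. When set against the other 2-month group, 0 of them passed in either direction, and 3 fell with the length trend removed. The 5 falls became 1 without 2-month replicate 5 and 2 without 18-month replicate 2, and the rise was lost without 2-month replicates 4 or 5 or 18-month replicates 1 or 2.

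**Figure D3:**
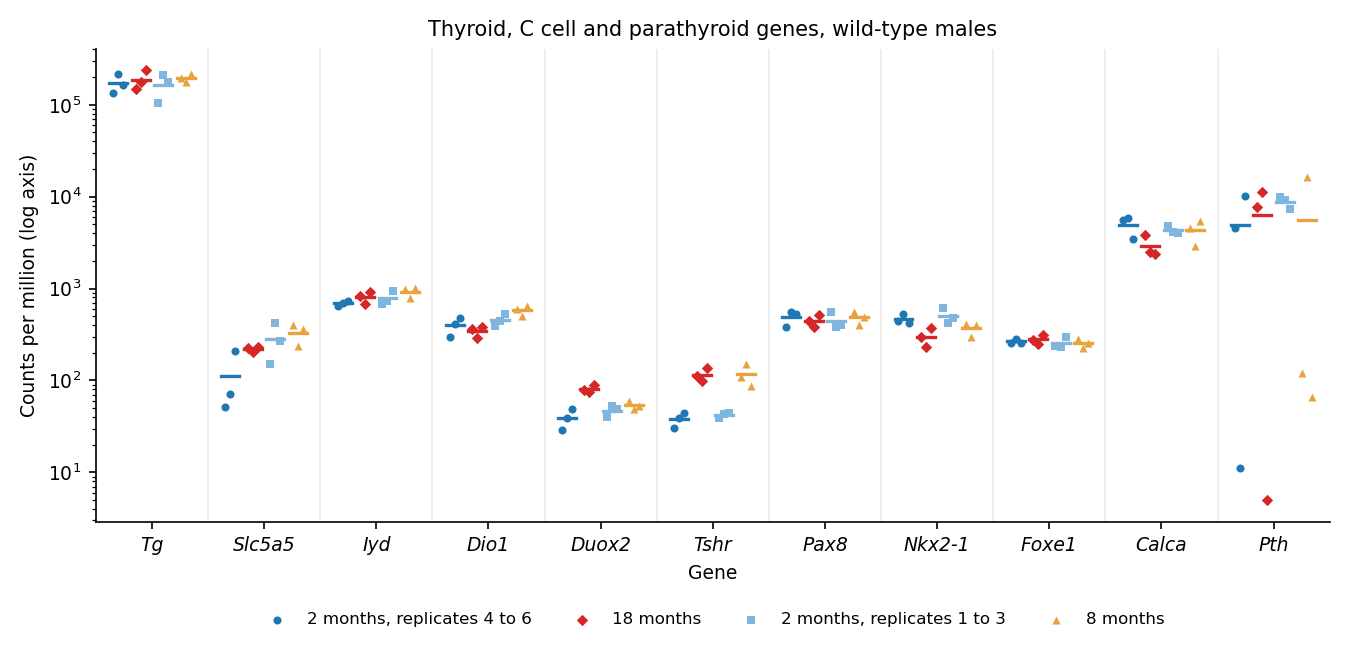
CPM on a log axis for 11 genes of thyroid follicles, C cells (Calca) and parathyroid (Pth) in the 12 wild-type male libraries, with a point per library and a line at each group mean. Tshr is above both 2-month groups at 8 and 18 months, Duox2 at 18 months, and Pth falls to 11.3 and 4.97 CPM in 1 library of each ageing group.

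C cells, which make calcitonin, were represented by 14 genes, of which 13 were tested, 6 fell and 0 rose (median -0.51). Of all genes tested, 18.8% fell and 17.1% rose. With the length trend removed, 2 C cell genes were lower. Against the other 2-month group 2 were lower, Scg3 and Pcsk2. Scg3, a granule protein, had 78.6, 93.6 and 60.5 CPM at 2 months and 44.5, 35.4 and 34.9 CPM at 18 months, with 72.9, 77 and 78.1 CPM in the other 2-month group, and the old libraries lay below all young ones. The difference was -1.05 ± 0.17 (adjusted p = 0.0030) and -0.99 ± 0.14 (adjusted p = 0.0091). Pcsk2, a prohormone convertase, fell by 1.28 ± 0.22 on the log2 scale (adjusted p = 0.0040), with -0.73 ± 0.15 against the other group (adjusted p = 0.027). Calca, the calcitonin gene, had 5514, 5855 and 3457 CPM young and 3814, 2478 and 2400.3 CPM old, so the lowest young library lay below the highest old one. Its difference was -0.80 ± 0.27 (adjusted p = 0.048) and -0.57 ± 0.23 (adjusted p = 0.16), and the first was not met without single libraries, with adjusted p = 0.12 without 2-month replicate 4, 0.17 without 2-month replicate 5, 0.19 without 18-month replicate 2 and 0.15 without 18-month replicate 3. The 6 calls became 2 without 2-month replicate 5, and 4 without 2-month replicate 4, 18-month replicate 2 or 18-month replicate 3.

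Chga and Pth were low in the same libraries. Pth, parathyroid hormone, lay at 4556, 11.3 and 10245 CPM at 2 months and 7712, 11218 and 4.97 CPM at 18 months, so that 1 library in each group was nearly without it. Chga, a granule protein of both cell types, had 8019, 101 and 17563 and 10091, 14222 and 29.8 CPM in the same libraries. None of the 6 parathyroid genes passed the test, and 0 passed in any fit that left out 1 library.

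Clock genes differed in both directions. The circadian clock is a loop in which ARNTL with CLOCK or NPAS2 drives period, cryptochrome and REV-ERB genes that in turn repress it, and the levels of its transcripts cycle over the day. Of 15 core genes, 5 rose and 7 fell, and against the other 2-month group 2 were higher and 6 lower. The hour of dissection is not given for either age, so age and hour cannot be told apart. Leaving out 18-month replicate 1 or 2-month replicate 5 brought the rises to 3.

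Arntl (BMAL1) lay at 3.76, 1.98 and 3.52 CPM at 2 months and 40.2, 33.7 and 29.6 CPM at 18 months, with 4.50, 3.66 and 5.77 CPM in the other 2-month group and 10.5, 20.5 and 9.53 CPM at 8 months. Every old library was above every younger one. The difference was 3.44 ± 0.26 (adjusted p = 0.00071), 2.89 ± 0.22 against the other 2-month group (adjusted p = 0.00065) and 1.54 ± 0.31 at 8 months (adjusted p = 0.015). Npas2 rose by 1.66 ± 0.30 (adjusted p = 0.0051), from 10.4, 8.07 and 4.43 to 30.2, 21.9 and 22.1 CPM. Clock rose by 1.12 ± 0.13 (adjusted p = 0.0011) but not against the other 2-month group (0.33 ± 0.14, adjusted p = 0.19).

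Several targets of that pair were lower. Of 10 clock output genes, which include Dbp and Tef, 5 fell and 0 rose (median -1.02), beside 18.8% and 17.1% of all genes tested. Against the other 2-month group 2 were lower and 1 higher (median -0.03), and 4 were higher in the 2-month group than in the other. Dbp, a transcription factor of clock output, lay at 242, 272 and 191 CPM and 263, 210.2 and 218 CPM in the 2 groups of 2-month males, at 104, 85.6 and 115 CPM at 8 months and at 12.3, 20.8 and 34.6 CPM at 18 months. The 18-month libraries were the lowest, the 8-month libraries came next, and both lay below all young ones. The differences at 18 months were -3.41 ± 0.41 (adjusted p = 0.0025) and -3.35 ± 0.38 (adjusted p = 0.011). Tef, of the same family, fell by 1.73 ± 0.19 on the log2 scale (adjusted p = 0.0010) from 392, 424 and 343 to 88.5, 135 and 134 CPM, and was also lower at 8 months, by -0.71 ± 0.17 (adjusted p = 0.043). Per3 fell by 1.87 ± 0.22 (adjusted p = 0.0013) and Ciart, a repressor in the loop, by 2.28 ± 0.26 (adjusted p = 0.0011), each also against the other 2-month group (adjusted p = 0.011 and 0.040). Nr1d1 and Nr1d2, which encode the REV-ERB repressors of Arntl, fell by 1.25 ± 0.23 and 0.68 ± 0.15 (adjusted p = 0.0048 and 0.0094), and Bhlhe41 and Cry2 by 1.19 ± 0.21 and 1.02 ± 0.18 (adjusted p = 0.0036 and 0.0041). Per2 had 72.1, 77 and 69.1 CPM at 2 months and 76.9, 71.7 and 66.2 CPM at 18 months, with overlapping groups (adjusted p = 0.75). Per1 fell by 0.83 ± 0.15 (adjusted p = 0.0041) and did not differ in the test against the other 2-month group (0.10 ± 0.31, adjusted p = 0.88).

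**Figure D4:**
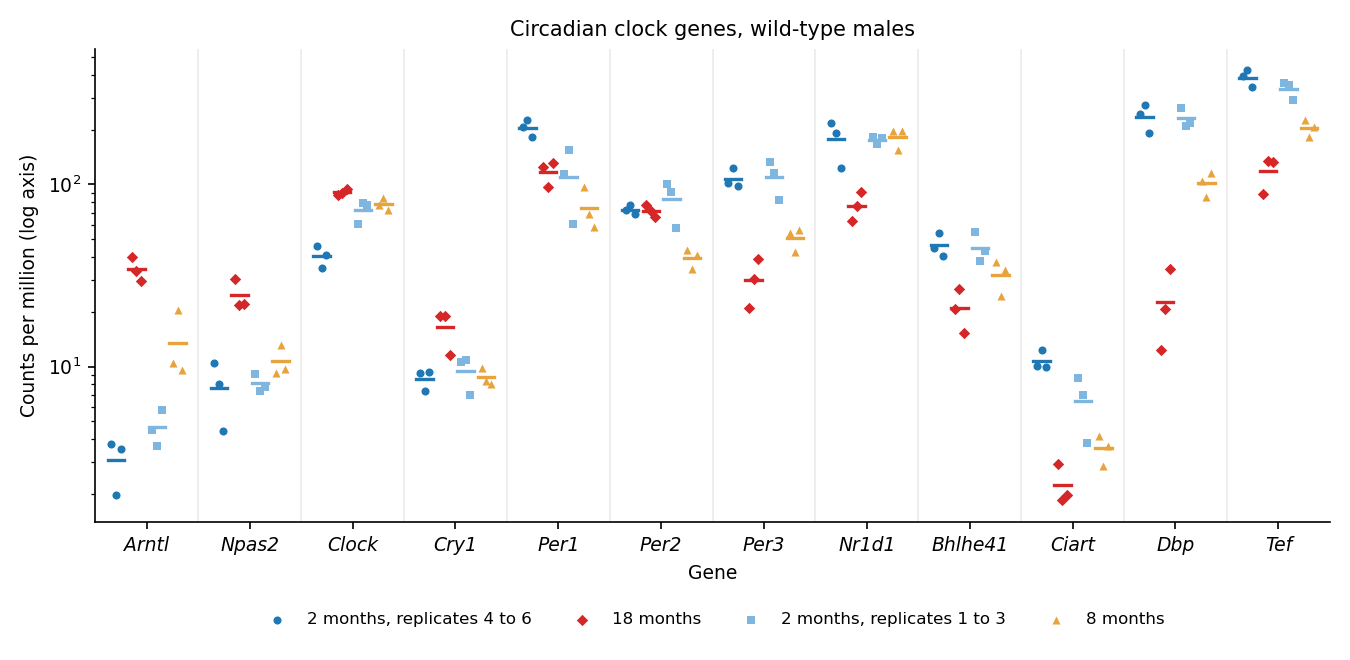
CPM on a log axis for 12 clock genes in the 12 wild-type male libraries, with a point per library and a line at each group mean. At 18 months Arntl and Npas2 lie above both 2-month groups and Per3, Nr1d1, Ciart, Dbp and Tef below them, while Per2 overlaps.

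A pair of promoter windows is shown for genes of this loop that fell. The E-box CACGTG, to which ARNTL and its partners bind, was in the 250 bases before 4 of 12 core genes with a promoter in the table, beside 6.86% of all 27025 genes. The D-box TTATGTAA, bound by DBP and TEF, was in 1 of the 12, beside 0.977% of all. Ciart (chr3:95882229-95882478 on the minus strand) has 3 E-boxes, starting 116, 58 and 44 bases before the start, and Per3 (chr4:151044666-151044915 on the minus strand) has 2 D-boxes, at 205 and 158 bases. Both are written 5′ to 3′ on the gene's strand, with these motifs in capitals.
Ciart: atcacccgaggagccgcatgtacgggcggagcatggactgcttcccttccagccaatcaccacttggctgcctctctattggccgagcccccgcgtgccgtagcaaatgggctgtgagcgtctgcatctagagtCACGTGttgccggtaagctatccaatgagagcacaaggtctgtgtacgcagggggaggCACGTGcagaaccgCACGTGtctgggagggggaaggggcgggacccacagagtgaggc
Per3: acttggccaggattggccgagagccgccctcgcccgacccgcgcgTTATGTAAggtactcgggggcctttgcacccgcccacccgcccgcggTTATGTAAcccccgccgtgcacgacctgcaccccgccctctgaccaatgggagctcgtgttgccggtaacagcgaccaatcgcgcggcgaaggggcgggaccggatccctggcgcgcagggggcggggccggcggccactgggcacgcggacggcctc
Among all 1119 tested genes with an E-box there, 216 rose and 225 fell beside the 17.1% and 18.8% of all genes tested.

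Fat cell transcripts were lower at 18 months than in the 2-month group, and the 2-month groups differed in them as well. Of 14 white adipocyte genes, 11 fell and 0 rose (median -1.99). Against the other 2-month group 1 was lower (median -0.78), and 9 of the 14 were higher in the 2-month group than in the other (median 1.22). Cidec, a lipid droplet protein, had 146, 137 and 124 CPM at 2 months, 15.6, 28.2 and 22.5 CPM at 18 months and 35.3, 53.2 and 32.5 CPM in the other 2-month group. The old libraries were below all young ones, with a difference of -2.65 ± 0.21 (adjusted p = 0.00071), and of -0.86 ± 0.25 against the other group, which did not pass (adjusted p = 0.078). Adipoq, the adiponectin gene, fell by 2.48 ± 0.27 on the log2 scale (adjusted p = 0.0013), with -1.07 ± 0.26 (adjusted p = 0.053) against the other group. Adrb3, the beta-3 adrenergic receptor of fat cells, was the only listed member called lower against both. It went from 15.0, 12.1 and 24.8 CPM and 17.0, 14.9 and 12.2 CPM at 2 months to 0.985, 2.60 and 5.02 CPM at 18 months, with -2.62 ± 0.60 (adjusted p = 0.018) and -2.35 ± 0.51 (adjusted p = 0.043), and did not pass without single libraries, with adjusted p = 0.077 without 18-month replicate 2.

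A pair of metabolic enzymes of fat and liver fell far below the young levels. Cyp2e1, a cytochrome P450, had 323, 267 and 178 CPM and 54.1, 60.7 and 51.1 CPM in the 2 young groups, 96.0, 119 and 120.3 CPM at 8 months and 9.85, 14.6 and 8.57 CPM at 18 months. No 2 of these 4 groups overlapped, and the 18-month differences were -4.57 ± 0.31 (adjusted p = 0.00071) and -2.33 ± 0.20 (adjusted p = 0.0014). Pck1, which makes phosphoenolpyruvate in glucose and glycerol synthesis, differed by -4.08 ± 0.45 (adjusted p = 0.0023) and -2.06 ± 0.33 (adjusted p = 0.022). Beside these, the level of 14 white adipocyte genes was 7.06 to 7.20 in the 2-month group, 5.67 to 6.39 in the other, 6.38 to 6.50 at 8 months and 4.43 to 5.52 at 18 months. The level of 10 liver genes was 1.78 to 2.21, 0.94 to 1.08, 4.13 to 4.83 and 0.63 to 0.75 in the same order. The part of fat and liver transcripts in these differences was not tested.

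**Figure D5:**
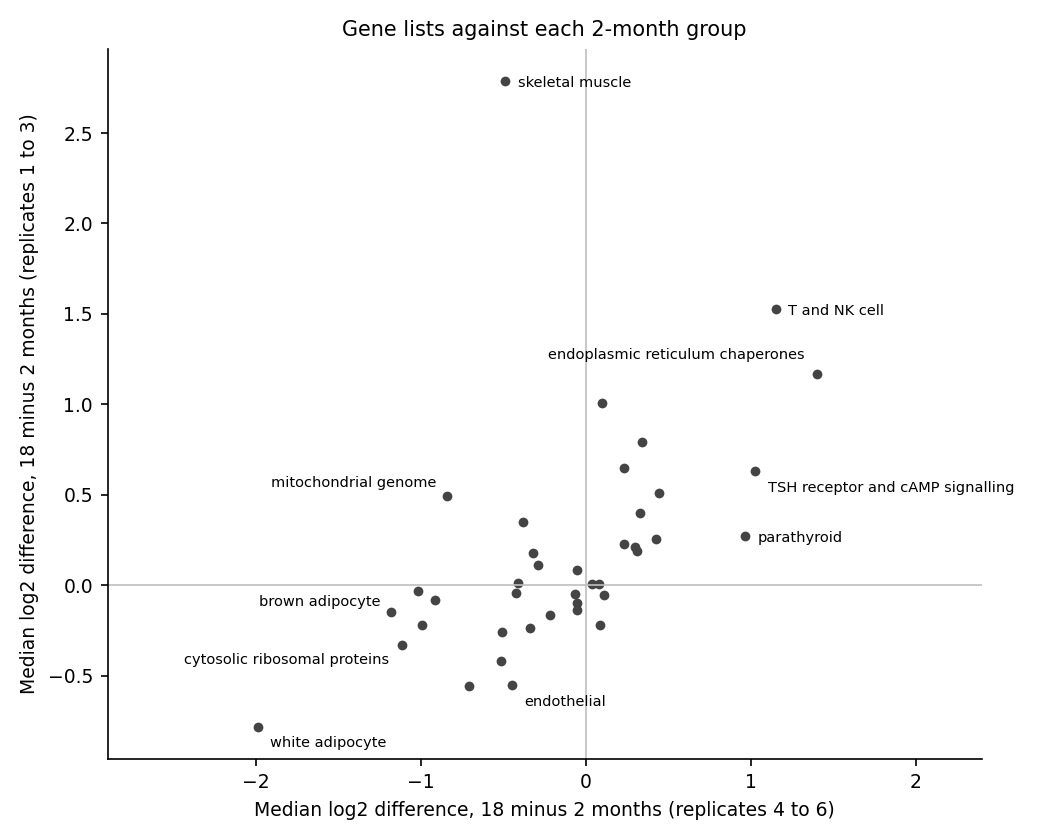
Median log2 difference of 40 gene lists with at least 5 tested members, for 18 months against the 2-month group of the ageing set (horizontal axis) and against the other 2-month group (vertical axis), which share the 18-month libraries. Endoplasmic reticulum chaperones lie at 1.40 and 1.17, and cytosolic ribosomal proteins at -1.12 and -0.33.

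Many ribosomal protein and respiratory chain genes were lower at 18 months than in the 2-month group of the ageing set. All 24 listed ribosomal protein genes fell (median -1.12), while against the other 2-month group 1 was lower (median -0.33), and 18 of 24 were higher in the 2-month group than in the other. Their median exon length was 1800 bases, and with the length trend removed 18 were lower (median -0.67). Rps19 had 455, 739 and 601 CPM young, 274, 214 and 241 CPM old and 313, 208 and 352 CPM in the other 2-month group, where the old libraries overlap the young. Of 24 nuclear genes of the respiratory chain, 20 fell (median -0.92), and 0 passed against the other 2-month group (median -0.08). Their calls numbered 13 with the length trend removed. Of 24 antioxidant and selenoprotein genes, 17 fell and 3 rose, and with the length trend removed 11 were lower and 3 higher. Only Prdx4, a peroxiredoxin of the endoplasmic reticulum, was lower against both. It went from 49.7, 60.7 and 56.5 to 23.8, 23.2 and 29.2 CPM, a difference of -1.16 ± 0.14 (adjusted p = 0.0012) and -0.85 ± 0.17 (adjusted p = 0.026), opposite in sign to the chaperones of its compartment.

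Of 11 tested T and NK cell genes, 2 rose and 0 fell (median 1.15). That share of rises is near the 17.1% of all genes tested. Against the other 2-month group 2 of 9 were higher (median 1.53). Cd3g, a chain of the T cell receptor complex, had 1.59, 1.6 and 0.651 CPM at 2 months, 0.954, 1.68 and 1.04 CPM in the other 2-month group and 3.01, 4.56 and 3.00 CPM at 18 months. It was higher against both, by 1.42 ± 0.42 (adjusted p = 0.028) and 1.53 ± 0.37 (adjusted p = 0.043), but not without single libraries, with adjusted p = 0.053 without 2-month replicate 5, 0.063 without 2-month replicate 6 and 0.089 without 18-month replicate 2. With 18-month replicate 2 or 2-month replicate 6 left out, 0 T cell genes passed, with 2-month replicate 4 or 5 left out 1, and without 18-month replicate 1 as many as 4. Among the old libraries, 18-month replicate 2 had the highest level of 19 T and NK cell genes, 1.5 beside 0.72 and 0.91, and of 25 B and plasma cell genes, 2.44 beside 1.38 and 1.84. Igkc, the kappa light chain, lay at 0.622, 96.3 and 21.2 CPM in the 3 old libraries and 6.84, 3.73 and 1.5 CPM in the young, and did not pass (adjusted p = 0.23).

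Of 9 tested genes of a list of chemokines and lymphoid signals, 3 rose and 1 fell, and 3 were higher against both 2-month groups, beside 2.22% of all genes. The 3 were Ccl2, Ccl7 and Ccl8, which attract monocytes and stood below 1 CPM in every young library. The member that fell was Cxcl13, a B cell chemokine, at -0.94 ± 0.29 (adjusted p = 0.044), with -0.80 ± 0.27 against the other 2-month group (adjusted p = 0.12). That call was not met without single libraries, with adjusted p = 0.080 without 2-month replicate 4, 0.10 without 2-month replicate 5, 0.12 without 18-month replicate 1 and 0.14 without 18-month replicate 3. Ccl2 lay at 0.371, 0.305 and 0.195 CPM in the 2-month group, 0.636, 0.497 and 0.275 CPM in the other and 3.47, 2.48 and 1.80 CPM at 18 months, and Ccl8 at 0.265, 0.152 and 0, 0.212, 0.31 and 0.11 and 2.33, 5.31 and 2.4 CPM in the same order. Every old library was above every young one in both genes. The differences of Ccl2 were 3.08 ± 0.47 (adjusted p = 0.0022) and 2.45 ± 0.46 (adjusted p = 0.020), and those of Ccl8 4.43 ± 0.74 (adjusted p = 0.0030) and 3.96 ± 0.55 (adjusted p = 0.0091), at levels where single counts weigh. Of 26 macrophage genes 4 rose and 2 fell, shares below the 17.1% and 18.8% of all genes tested. Itgax (CD11c), the only one called against both, went from 4.19, 3.43 and 2.80 to 10.8, 7.27 and 9.66 CPM, by 1.38 ± 0.26 (adjusted p = 0.0048) and 1.10 ± 0.25 (adjusted p = 0.038). The macrophage rises became 2 without 2-month replicate 5 or 6, and the falls became 1 without 2-month replicates 4 or 5 or 18-month replicate 2. Of 14 tested complement genes 2 rose and 1 fell, shares below the 17.1% and 18.8% of all genes tested. Against the other 2-month group 3 were higher and 0 lower. The only one called against both was C5ar1, the receptor of a complement fragment, which rose by 1.81 ± 0.35 (adjusted p = 0.0049) and 2.31 ± 0.38 (adjusted p = 0.015). Ciita, the transactivator of class II antigen presentation, rose by 1.66 ± 0.31 (adjusted p = 0.0044) and 1.39 ± 0.30 (adjusted p = 0.030). Of the 16 antigen presentation genes, which include Ciita, 6 fell and Ciita alone rose. Those falls became 1 without 2-month replicate 5 or 18-month replicate 2, 2 without 18-month replicate 1 and 4 without 2-month replicate 4 or 18-month replicate 3. Against the other 2-month group 2 were higher and 0 lower, and 12 of 16 were higher in the 2-month group than in the other.

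Many endothelial genes were lower. Of 20 members 10 fell and 0 rose (median -0.45), and 2 were lower against the other 2-month group (median -0.55). Plvap, a protein of the diaphragms of fenestrated capillaries, had 242, 273 and 203 CPM and 231, 166 and 162 CPM at 2 months and 90.5, 104 and 116 CPM at 18 months. Emcn, endomucin, had 100.3, 92.1 and 66.9 CPM, 131, 83.6 and 99.6 CPM and 39.1, 43.4 and 52.6 CPM. The old libraries lay below all young ones in both. Plvap fell by 1.24 ± 0.15 on the log2 scale (adjusted p = 0.0013) and differed by -0.85 ± 0.18 from the other group (adjusted p = 0.029), and Emcn fell by 0.97 ± 0.18 (adjusted p = 0.0041) and -1.22 ± 0.19 (adjusted p = 0.013). At 8 months the median of the 20 genes was -0.50, with 2 called lower. Igfbp7, a secreted binding protein of the vessel wall, fell by 1.43 ± 0.12 (adjusted p = 0.00071), with -1.02 ± 0.22 against the other group (adjusted p = 0.030). Of 17 tested genes of the insulin-like growth factor axis, 5 rose and 4 fell, and 1 was higher and 2 lower against the other 2-month group. Of 16 collagen genes, 2 rose and 3 fell (median -0.05), and 0 were higher and 2 lower against the other 2-month group. Of all genes tested, 17.1% rose and 18.8% fell. Col3a1, a fibrillar collagen, had 191, 170.3 and 107 CPM and 173, 169 and 185 CPM at 2 months, 78.6, 71.4 and 106 CPM at 8 months and 65.0, 100.4 and 73.7 CPM at 18 months. Its differences were -1.0 ± 0.25 (adjusted p = 0.017), -1.14 ± 0.18 (adjusted p = 0.013) and at 8 months -1.04 ± 0.22 (adjusted p = 0.022). The first was not met without single libraries, with adjusted p = 0.058 without 2-month replicate 4, 0.072 without 2-month replicate 5, 0.056 without 18-month replicate 1 and 0.064 without 18-month replicate 3.

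Genes linked to senescence gave no common direction, and few cell cycle genes passed the test. Of 19 tested senescence and p53 genes 1 rose and 5 fell, beside 17.1% and 18.8% of all genes tested. Against the other 2-month group 3 were higher and 1 lower. Aen, a nuclease induced by p53, was the only member higher against both, by 0.91 ± 0.19 (adjusted p = 0.0069) and 0.85 ± 0.17 (adjusted p = 0.025). Cdkn1a (p21) had 37.7, 48.6 and 55.2 CPM young and 109, 50.5 and 49.7 CPM old, with 18-month replicate 1 the highest, and did not pass (adjusted p = 0.28). Cdkn2a was too low to be tested. Of 19 tested cell cycle genes 3 fell and 0 rose (median -0.21), a share of falls below the 18.8% of all genes tested. The difference was below 0 in 15 of the 19 and above it in 4. Against the other 2-month group 0 passed. The senescence rises became 2 without 18-month replicate 2 or any 2-month library, the falls became 1 without 18-month replicate 3, 2 without 2-month replicate 5 and 3 without 2-month replicate 6 or 18-month replicates 1 or 2, and the cell cycle falls became 0 without 18-month replicate 1 or 2-month replicate 5, 1 without 18-month replicate 3 or 2-month replicate 6, and 2 without either other library.

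Several genes outside the lists stood clear of both young groups. Csmd2, a large membrane protein with complement-like domains, had the greatest rise by the naming rule, from 0.424, 0.305 and 0.521 to 8.97, 8.82 and 12 CPM, with 3.84, 7.06 and 3.67 CPM at 8 months. Its differences were 4.51 ± 0.32 (adjusted p = 0.00071) and 3.95 ± 0.30 (adjusted p = 0.00065). Cyp27b1, the hydroxylase that activates vitamin D, went from 2.28, 3.81 and 3.97 CPM and 3.07, 3.48 and 2.80 CPM at 2 months through 14.2, 20.1 and 13.4 CPM at 8 months to 40.1, 20.2 and 41.0 CPM at 18 months. The 3 ages did not overlap, though 8-month replicate 2 and 18-month replicate 2 were close. It rose by 3.31 ± 0.34 (adjusted p = 0.0012), 3.44 ± 0.29 (adjusted p = 0.0014) and at 8 months 2.35 ± 0.29 (adjusted p = 0.00041). In 18-month replicate 3, where Pth lay at 4.97 CPM, Cyp27b1 was at 41.0 CPM. Foxf2, a forkhead factor of mesenchymal cells, rose by 3.33 ± 0.35 (adjusted p = 0.00097) and 2.60 ± 0.32 (adjusted p = 0.0061), from 1.54, 1.37 and 2.15 CPM and 3.44, 2.86 and 2.31 CPM to 23.2, 10.3 and 18.9 CPM. At 8 months it lay at 2.04, 1.07 and 2.57 CPM, with 1 library below all young ones and the others among them.

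Other genes of this kind were picked after their values were seen. Bhlha15 (MIST1), a transcription factor of secretory cells, went from 9.70, 12.6 and 8.27 CPM and 7.47, 12.2 and 9.62 CPM through 23.7, 28.1 and 23.1 CPM at 8 months to 43.7, 44.0 and 34.5 CPM at 18 months, an ordered set with no overlap between ages. It rose by 1.97 ± 0.19 (adjusted p = 0.00082) and 2.06 ± 0.20 (adjusted p = 0.0024). Sec61a1, the core of the channel through which proteins enter the endoplasmic reticulum, rose by 1.27 ± 0.14 (adjusted p = 0.00098) and 1.0 ± 0.22 (adjusted p = 0.033). Among the falls, Pla2g4f, a cytosolic phospholipase, went from 12.9, 13.1 and 8.14 CPM and 10.5, 6.89 and 6.81 CPM to 0.985, 1.33 and 1.15 CPM, by -3.33 ± 0.29 (adjusted p = 0.00075) and -2.80 ± 0.31 (adjusted p = 0.0048). Socs2, a suppressor of growth hormone signalling, had 132, 192 and 108 CPM and 159, 152 and 94.6 CPM at 2 months, 50.4, 55.1 and 55.0 CPM at 8 months and 30.7, 31.1 and 45.6 CPM at 18 months. It fell by 2.03 ± 0.25 on the log2 scale (adjusted p = 0.0017), and every library of 8 and 18 months was below every young one. Trpv6, an epithelial calcium channel, fell by 2.13 ± 0.40 (adjusted p = 0.0068), from 19.2, 27.1 and 17.7 CPM and 16.1, 16.3 and 20.2 CPM to 2.85, 3.81 and 8.19 CPM.

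At 8 months, 376 of 17373 genes (2.16%) differed from the other 2-month group, 302 higher and 74 lower. In 1 fit of the 12 libraries, 91 of these 376 were called in the same direction at 18 months against the ageing set's 2-month group and 74 in the opposite one, beside 6803 calls at 18 months in that fit. The difference between the 18-month and the 8-month difference passed in 4215 genes (24.3%), among them 12 of the 22 chaperone genes, all with the larger difference at 18 months. For Hspa5 this difference of differences was 1.9 ± 0.35 (adjusted p = 0.0027), for Arntl 1.93 ± 0.43 (adjusted p = 0.0071), for Tshr 0.15 ± 0.27 (adjusted p = 0.72) and for Cyp27b1 0.99 ± 0.40 (adjusted p = 0.085). Since each older group is set against its own 2-month group, age and the difference between the 2-month groups cannot be told apart in it.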

How the data were processed

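Raw read counts per gene, as deposited, were used for 12 wild-type male libraries of a series of 30. Per the file headers, the authors counted read pairs over exons with featureCounts 1.6.0 on Ensembl 88, with no strand option, so overlapping and antisense genes share reads. The submitters' processing notes also name cutadapt 1.9, HISAT2 2.0.4, StringTie 1.3.4d and GRCm39, whereas the headers point to GRCm38. Of 50686 identifiers, 50462 were given a symbol from GENCODE M21. Genes were kept by filterByExpr (minimum count 10), scaled by TMM and tested with edgeR 4.0.16's quasi-likelihood test (R 4.3.3), with Benjamini-Hochberg adjustment over all genes tested. The 6 libraries gave 4 residual degrees of freedom. The other 2-month group was tested in the same way in its place, and the 2-month groups, the 8-month difference and the difference of differences in 1 fit of 12 libraries. Fold changes use a prior count of 0.125. No 2 libraries were identical. The code was tested on simulated data.

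The rule named up to 15 rises and 15 falls of the greatest size with at least 5 CPM in 1 group and no overlap, 6 of the highest level in each direction, up to 4 called members per list and a set of thyroid genes. Other genes were chosen after their values were seen. The members and the 45 gene lists were chosen with earlier results of these data known. Alternatives were DESeq2 1.42.0, its size factors, library totals, no filter, all 30 libraries, other young groups, leaving out each library, removal of length and GC trends, and a replicate block where groups share numbers.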

Additional observations from a re-analysis of the deposited data

How the results depend on the processing

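The choice of young libraries moved the counts most. With the other 2-month group as the young one, 533 genes were higher and 326 lower at 18 months, and with all 6 libraries of 2 months 733 were higher and 684 lower, beside 2782 and 3058. Leaving out 1 library at a time gave 1934 to 2600 higher and 1717 to 2870 lower, the lowest of both without 2-month replicate 5. With DESeq2 3095 were higher and 2957 lower, with library totals 2806 and 2240, and with the length trend removed 2076 and 2135, or 1913 and 2077 with GC too. Both trend removals were added after seeing the data. Among 71 called genes of the 89 given with a fold change or level, 1 changed direction in any setting listed: Per1, at 0.10 with the other 2-month group as the young one. The cause was not tested. Over all genes, 587 of the 5840 calls were also called, in either direction, with the other 2-month group as the young one. Some of the 71 were picked with their values against both 2-month groups known, so their share does not stand for all calls. Of the 71, 14 kept their direction but lost their call with the other 2-month group as the young one. With all 6 libraries of 2 months 9 did so, and without 2-month replicate 5 it was 8. Removal of the length trend cost 4 calls in this way, and removal of GC too 5. No paired analysis was possible because the 18-month and 2-month groups of the ageing set share no replicate numbers. The 18- and 8-month males do share numbers 1 to 3 with the other 2-month group. With the replicate number as a block, added after seeing the data, 1259 genes differed at 18 months beside 859 without it (816 higher and 443 lower beside 533 and 326), and at 8 months 566 beside 455 in a fit of those 6 libraries. Deviations of same-numbered libraries correlated at 0.05, 0.31 and 0.13 at 18 months and 0.07, -0.11 and 0.16 at 8 months. Those of differently numbered libraries ran from -0.33 to 0.22 at 18 months and from -0.31 to 0.25 at 8 months. Whether a shared number marks anything else in common was not tested. With 3 mice a group, genes near 1 CPM rest on few counts.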
